A study of Mus musculus with 9 samples.

Results

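The BMP and GDF ligands described here were 9 secreted growth factors of the TGF-beta superfamily, encoded by Bmp2, Bmp3, Bmp4, Bmp5, Bmp6, Bmp7, Gdf5, Gdf6 and Gdf7. They were selected by gene name, and were 9 of the 54532 genes in the deposited count table. The libraries were made from lambdoidal junction tissue, where 3 pairs of facial prominences (medial and lateral nasal, and maxillary) meet and fuse to form the upper lip and primary palate. The embryos were C57BL/6J mice with no engineered allele or treatment named for any of the 3 stages (E10.5, then E11.5, then E12.5). Each stage had 3 libraries, each made from a pool of embryos. Pooled tissue gives one value per pool, so differences between embryos cannot be seen, and the p-values below measure the spread between pools.

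BMPs and GDFs are secreted dimers that bring type I and type II receptors together on the cell surface. The receptors phosphorylate Smad1, Smad5 and Smad9, which enter the nucleus with Smad4 and act on target genes such as the Id and Msx genes. BMP signaling is known to take part in the growth and fusion of the facial prominences and later in the formation of the facial skeleton. By sequence the ligands fall into subgroups. Bmp2 and Bmp4 are closely related, Bmp5, Bmp6 and Bmp7 form a second subgroup, and Gdf5, Gdf6 and Gdf7 are known for their roles in joints and tendons. Bmp3 is the odd member, known mainly for opposing the activity of other BMPs.

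The total count per library was 16581009–20836804. E10.5 replicate 3 stood apart from the other E10.5 libraries. Its gene-wise deviation from the stage mean ran against GC content across genes (Spearman's rho = -0.55, against 0.44 and 0.47 in the other two), and the summed CPM of 14 mesenchyme markers was 1583 in it and 3015 and 3055 in the others. Counts against E10.5 are therefore also given without this library. Replicates of E12.5 also differed more than those of E11.5. The SD of the log2 difference between 2 replicates, over well-counted genes, was 0.357–0.491 at E12.5 and 0.173–0.227 at E11.5. It was 0.562 and 0.566 for the pairs with E10.5 replicate 3. Exons of 4 ligand genes overlap a gene on the other strand, and whether reads were counted by strand is not given in the sources used here. The overlap covered 46.7% of the exon bases of Bmp5 and 40.3% of those of Gdf5, whose overlapping genes Gm26903 and Gm15557 had 0 counts and 1 count over all 9 libraries. It covered 5.74% of Bmp6, shared with Txndc5 at 171–236 CPM, and 3.96% of Bmp4, shared with Gm15217 at 0.108–0.896 CPM.

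Sequence upstream of the gene start was found in RefSeq (GRCm38.p6) for 4 of the 9 ligands. Those of Bmp4, Bmp5 and Gdf7 are shown because Bmp4 was among the most abundant ligands, Bmp5 changed by less than 2-fold at every step and Gdf7 had the largest fold change. Each line gives the 250 bases before the start, 5′ to 3′ on the strand of the gene, with a GC box (GGGCGG on either strand) in capitals where there was one.
Bmp4 (chr14:46390670-46390919, minus strand): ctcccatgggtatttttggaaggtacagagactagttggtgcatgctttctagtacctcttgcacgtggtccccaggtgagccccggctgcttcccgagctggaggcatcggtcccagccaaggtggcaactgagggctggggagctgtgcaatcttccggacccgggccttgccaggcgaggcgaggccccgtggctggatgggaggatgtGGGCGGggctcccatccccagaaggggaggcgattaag
Bmp5 (chr9:75775115-75775364, plus strand): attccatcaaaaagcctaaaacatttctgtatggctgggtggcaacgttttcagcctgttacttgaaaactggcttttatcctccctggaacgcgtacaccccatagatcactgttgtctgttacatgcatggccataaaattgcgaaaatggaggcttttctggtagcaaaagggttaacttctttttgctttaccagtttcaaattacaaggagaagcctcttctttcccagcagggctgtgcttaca
Gdf7 (chr12:8301955-8302204, minus strand): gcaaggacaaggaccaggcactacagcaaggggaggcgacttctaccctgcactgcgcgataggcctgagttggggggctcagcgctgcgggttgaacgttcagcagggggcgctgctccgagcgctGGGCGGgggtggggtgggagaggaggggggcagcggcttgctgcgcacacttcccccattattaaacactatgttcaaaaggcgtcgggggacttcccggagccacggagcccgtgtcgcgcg
The Bmp5 stretch had 4 CpG dinucleotides and 42.8% G and C and held no GC box. Gdf7 had 20 CpG and 66.0% G and C, and Bmp4 had 11 CpG and 63.2%, against a median of 6 CpG over 32851 such stretches. The single GC box began 123 bases before the start in Gdf7 and 38 bases before it in Bmp4. The stretch of Bmp6, which lies inside the Bmp6 gene of the count table and is not shown, had 22 CpG, 68.8% G and C and 1 GC box. A GC box was found in 32.7% of all stretches. A TATA box, spelled TATAAA, was found in none of the 4, against 12.4% of all stretches. The CCAAT motif was in none of them either, against 33.9%. GGCGCC, known as a BMP Smad element, was also in none, against 9.59%. An E box (CANNTG) was found 3 times in Bmp4, 2 times in Bmp6 and not in Bmp5 or Gdf7, against 66.2% of stretches with at least 1. No 2 different motifs overlapped in these 4 stretches, and both strands were searched.

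The ligand mRNA was mostly Bmp4 and Bmp7 at every stage. Levels of different genes were compared as RPKM, which is CPM (counts scaled to the TMM-adjusted library size) divided by gene length in kb. At E10.5 Bmp4 was at 18.5 ± 1.85 RPKM (SD, n = 3) and Bmp7 at 17.4 ± 2.79, and their libraries overlapped. Gdf6 followed at 6.76 ± 1.25 RPKM, apart from both, and the other 6 ligands were all below 1 RPKM in every library. Among these, Bmp5 (0.760 ± 0.122), Bmp2 (0.699 ± 0.251) and Bmp6 (0.401 ± 0.115) overlapped with their neighbours in the order, and so did Bmp3 (0.199 ± 0.0386), Gdf5 (0.146 ± 0.0535) and Gdf7 (0.0829 ± 0.0835), which were apart from the former. At E11.5 the order was Bmp7 (26.8 ± 2.06 RPKM) and Bmp4 (26.2 ± 3.46), which again overlapped, then Gdf6 (7.84 ± 0.800). Gdf7 (2.33 ± 1.06) and Bmp2 (2.16 ± 0.638) overlapped in the next places. Bmp5 (1.37 ± 0.109) followed, below Bmp2 in all libraries and within the range of Gdf7. The last 3 were Bmp6 (0.750 ± 0.212), Bmp3 (0.461 ± 0.166) and Gdf5 (0.283 ± 0.0963), and neighbours among these overlapped. At E12.5 Bmp4 (34.4 ± 6.28 RPKM) and Bmp7 (29.2 ± 5.58) still led and overlapped, and Bmp2 had moved to the third place at 6.73 ± 0.472, apart from Bmp7 and Bmp6, though the highest Gdf7 library (6.97) lay in its range. Bmp6 (3.80 ± 0.463), Gdf7 (3.72 ± 2.82) and Gdf6 (3.45 ± 0.126) came next and overlapped one another. Bmp3 (2.78 ± 0.405) was apart from Gdf6 and from Bmp5 (1.501 ± 0.358), and Gdf5 (0.436 ± 0.180) was the lowest.

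**Figure D1:**
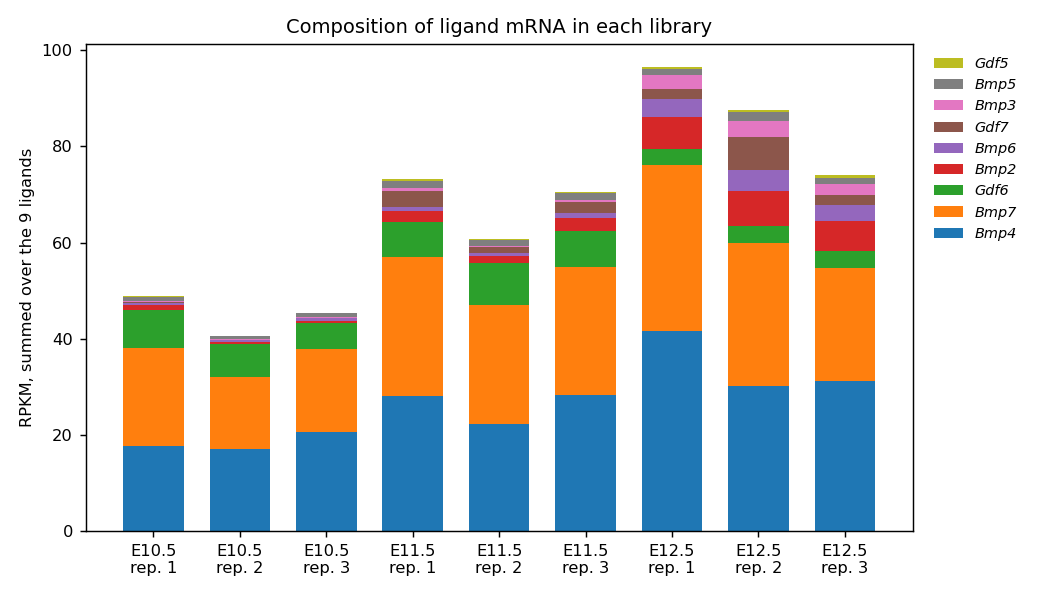
RPKM of the 9 ligands stacked for each of the 9 libraries (y axis, summed RPKM; x axis, libraries by stage and replicate). The summed level was 40.7–48.8 at E10.5 and 74.1–96.4 at E12.5, and the bands of Bmp2, Bmp6, Bmp3 and Gdf7 were thin at E10.5 and visible at E12.5.

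The summed RPKM of the 9 ligands was 45.0 ± 4.08 at E10.5 (SD, n = 3). It was 68.2 ± 6.52 a day later and 86.0 ± 11.2 at E12.5. Bmp4 and Bmp7 together made up 78.0–83.1% of this sum at the first stage, 77.3–77.9% at the second and 68.6–78.9% at the third. The share of Gdf6 was 15.0 ± 2.66% at E10.5 and 4.07 ± 0.671% at E12.5, while that of Bmp2 was 1.54 ± 0.443% and 7.90 ± 0.899%. Bmp6 went from 0.888 ± 0.230% to 4.45 ± 0.509% and Bmp3 from 0.441 ± 0.0468% to 3.25 ± 0.419%. Bmp4 held 41.3 ± 4.59% and 40.0 ± 4.73% at these stages and Bmp7 38.6 ± 2.78% and 33.8 ± 2.12%.

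Differences between stages were tested for all genes with edgeR's quasi-likelihood test, one pair of stages at a time, and DEGs were genes with a Benjamini-Hochberg adjusted p no higher than 0.05 that changed by 1 or more on the log2 scale. The 3 comparisons share libraries and are not independent. In these bulk samples, fewer cells of a type and less RNA per cell cannot be told apart. In E11.5 vs. E10.5, 2 of the 8 ligands tested were upregulated DEGs (Bmp2 and Gdf7), against 3.46% of all genes tested, and 0 were downregulated, against 2.61%. Without the fold threshold 4 of 8 passed, Bmp5 and Bmp7 in addition, against 11.8% of all genes. The libraries of the 2 stages did not overlap for 6 of the 8, against 36.7% of all genes. The median log2 fold change was 0.88 over the 8 ligands and -0.03 over all genes tested. Without E10.5 replicate 3, 4 of 8 ligands were upregulated DEGs, with Bmp3 (log2 fold change 1.18, adjusted p = 0.0210) and Bmp6 (1.14, adjusted p = 0.0183) in addition, against 4.75% of all genes in that fit, and 0 were downregulated, against 5.04%. Without E11.5 replicate 1, 1 ligand was an upregulated DEG (Gdf7), against 1.45% of all genes, and 0 were downregulated, against 0.996%.

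In E12.5 vs. E11.5, 3 of 9 ligands were upregulated DEGs (Bmp2, Bmp3 and Bmp6), against 4.14% of all genes, and 1 was downregulated (Gdf6), against 0.962%. The same 4 ligands passed the adjusted p alone, against 12.2% of all genes, and the libraries of 5 of the 9 did not overlap, against 35.3%. The median log2 fold change was 0.61 over the ligands and 0.02 over all genes. In E12.5 vs. E10.5, 5 of 9 were upregulated DEGs (Bmp2, Bmp3, Bmp6, Gdf5 and Gdf7), against 9.97% of all genes, and 0 were downregulated, against 5.08%. All 9 ligands passed the adjusted p, 8 higher and Gdf6 lower, against 24.6% of all genes, and in all 9 the libraries did not overlap, against 42.4%. The median log2 fold change was 1.56 over the ligands and -0.01 over all genes. Without E10.5 replicate 3 the number of DEGs was 6, since Bmp5 (1.08) and Gdf6 (-1.09) then passed the fold threshold and Gdf5 lost its call. Of these 6, 5 were upregulated, against 10.4% of all genes in that fit, and 1 was downregulated, against 6.23%.

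**Figure D2:**
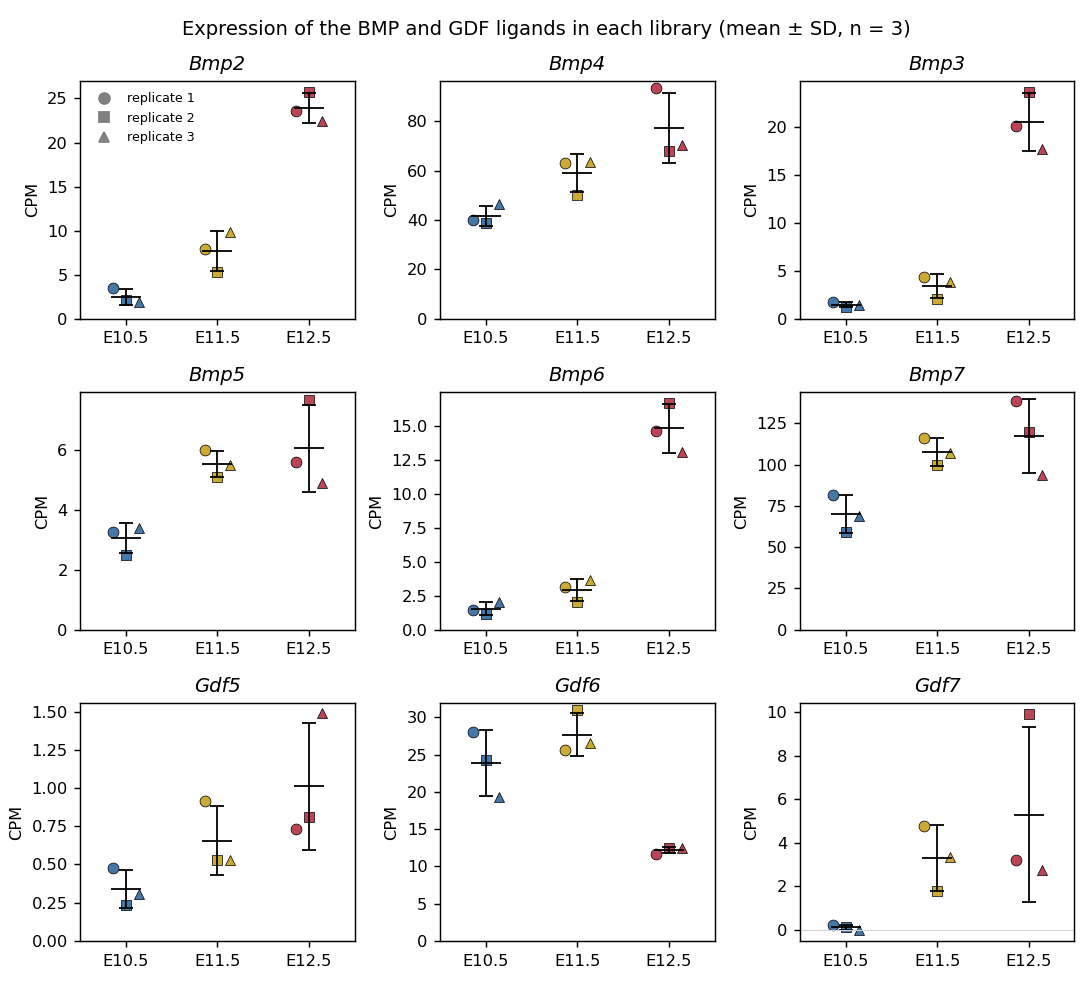
CPM of each ligand (y axis, linear, a separate scale per gene) in the 3 libraries of each stage, with symbols for the replicate and bars for the mean ± SD (n = 3). Bmp2, Bmp3 and Bmp6 were highest in all E12.5 libraries, Gdf6 was lowest there, and Gdf7 was at 0.238 CPM or below at E10.5 with 1 high library at E12.5.

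Bmp2 rose at both steps. This ligand (ENSMUSG00000027358, chr2:133552159-133562885, GRCm38) is known for its part in bone and heart formation. Its level was 3.51, 2.09 and 1.86 CPM in E10.5 replicates 1 to 3, 7.96, 5.29 and 9.80 CPM at E11.5, and 23.6, 25.8 and 22.5 CPM at E12.5. The libraries of the 3 stages did not overlap. The log2 fold change was 1.63 (SE 0.33, adjusted p = 0.0178) at the first step (E11.5 vs. E10.5) and 1.64 (SE 0.21, adjusted p = 0.000653) at the second, and over the whole span the rise was 9.66-fold (log2 3.27, SE 0.27, adjusted p = 1.655e-05). The first of these calls rested on single libraries. It was lost without E10.5 replicate 2 (adjusted p = 0.0645), E11.5 replicate 1 (0.0880) or E11.5 replicate 3 (0.0877), with log2 fold changes of 1.42–1.61 there.

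Bmp4, the close relative of Bmp2 and a ligand of the early facial epithelium and mesenchyme, was abundant at all stages and changed less. The gene (ENSMUSG00000021835, chr14:46383520-46390669) was at 39.9, 38.7 and 46.4 CPM at E10.5, 63.3, 50.0 and 63.6 CPM at E11.5, and 93.5, 67.9 and 70.4 CPM at E12.5. All E12.5 libraries were above all E11.5 libraries, and these above all E10.5 libraries. Neither step passed the test, with log2 fold changes of 0.50 (SE 0.14, adjusted p = 0.0507) and 0.39 (SE 0.15, adjusted p = 0.126). The adjusted p of the first step lay close to the threshold. It was 0.0207–0.0495 in 6 of 11 other settings, DESeq2 (0.0236) among them, and 0.000836 without E10.5 replicate 3, with a log2 fold change of 0.45 to 0.62 throughout. That of the second step was 0.0362 without E12.5 replicate 2. Over the whole span Bmp4 rose by less than 2-fold (1.87-fold, log2 0.90, SE 0.19, adjusted p = 0.00585).

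Bmp3 rose in E12.5 vs. E11.5. The gene (ENSMUSG00000029335, chr5:98854415-98884396) was at 1.78, 1.22 and 1.42 CPM at E10.5, 4.36, 2.02 and 3.85 CPM at E11.5, and 20.2, 23.7 and 17.8 CPM at E12.5. The stages did not overlap, though E11.5 replicate 2 was close to the E10.5 libraries. E12.5 vs. E11.5 gave a 6.04-fold rise (log2 2.59, SE 0.25, adjusted p = 0.000182), and E12.5 vs. E10.5 a 13.96-fold rise (log2 3.80, SE 0.26, adjusted p = 4.767e-06). The value of E11.5 vs. E10.5 was 1.20 (SE 0.35, adjusted p = 0.0619). This first step was a DEG in 5 of 11 other settings (adjusted p = 0.0231–0.0418), DESeq2 among them (1.21, adjusted p = 0.0315), without E11.5 replicate 2 (1.48, adjusted p = 0.0382) and, as given above, when E10.5 replicate 3 was left out.

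Bmp6, like Bmp3, rose between E11.5 and E12.5. This ligand (ENSMUSG00000039004, chr13:38345107-38500302) is known for its part in iron balance as well as in cartilage and bone. Its level was 1.49, 1.16 and 2.04 CPM at E10.5, 3.12, 2.02 and 3.63 CPM at E11.5, and 14.7, 16.7 and 13.1 CPM at E12.5. E11.5 replicate 2 lay within the range of E10.5, and all E12.5 libraries were above all others. The rise in E12.5 vs. E11.5 was 5.06-fold (log2 2.34, SE 0.22, adjusted p = 0.000168) and that over the whole span 9.52-fold (log2 3.25, SE 0.28, adjusted p = 2.149e-05). E11.5 vs. E10.5 gave 0.90 (SE 0.33, adjusted p = 0.121).

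Bmp5 and Bmp7, of the same subgroup as Bmp6, rose between E10.5 and E11.5 by less than 2-fold. Bmp7 (ENSMUSG00000008999, chr2:172868012-172940321), known for its roles in kidney and eye, was at 81.8, 59.4 and 69.0 CPM at E10.5, 116, 99.6 and 107 CPM at E11.5, and 139, 120 and 93.9 CPM at E12.5. The E12.5 range enclosed the E11.5 range. E11.5 vs. E10.5 gave a log2 fold change of 0.62 (SE 0.14, adjusted p = 0.0244) and E12.5 vs. E10.5 one of 0.75 (SE 0.20, adjusted p = 0.0193), while E12.5 vs. E11.5 gave 0.12 (SE 0.15, adjusted p = 0.620). Bmp5 (ENSMUSG00000032179, chr9:75775364-75900310), known from the short ear mouse, was at 3.27, 2.50 and 3.41 CPM at E10.5, 5.97, 5.10 and 5.48 CPM at E11.5, and 5.58, 7.66 and 4.89 CPM at E12.5. The later stages overlapped each other and lay above E10.5. The log2 fold changes were 0.85 (SE 0.21, adjusted p = 0.0377), 0.13 (SE 0.21, adjusted p = 0.716) and 0.99 (SE 0.29, adjusted p = 0.0277) at the first step, the second step and over the whole span. The last lies just under the fold threshold, and Bmp5 was a DEG in 5 of 11 other settings (up to 1.05) and when E10.5 replicate 3 (1.08) or E12.5 replicate 3 (1.12) was left out. Of the adjusted p-values of at most 0.05 given here, that of Bmp7 at the first step rose to 0.0654–0.120 without E10.5 replicate 2 or any single E11.5 library, and that of Bmp5 to 0.0723–0.154 without any single library but E10.5 replicate 3. Over the whole span that of Bmp7 rose to 0.0920 without E10.5 replicate 2 and 0.105 without E12.5 replicate 1, and that of Bmp5 to 0.0574–0.108 without E10.5 replicate 1 or 2 or E12.5 replicate 1 or 2. The signs of the small E12.5 vs. E11.5 values of both ligands also rested on 1 library. Without E12.5 replicate 2 that of Bmp5 was -0.085, and without E12.5 replicate 1 that of Bmp7 was -0.011.

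Gdf6 was the ligand that fell. The gene (ENSMUSG00000051279, chr4:9844372-9862345) is known for its parts in joint, skull and eye formation. Its level was 28.0, 24.3 and 19.3 CPM at E10.5, 25.7, 30.9 and 26.5 CPM at E11.5, and 11.7, 12.4 and 12.5 CPM at E12.5. The first 2 stages overlapped, and all E12.5 libraries were below all others. The log2 fold change was 0.22 (SE 0.16, adjusted p = 0.422) at the first step and -1.19 (SE 0.14, adjusted p = 0.000436) at the second, where Gdf6 was a downregulated DEG. In E12.5 vs. E10.5 Gdf6 fell by 0.96 on the log2 scale (SE 0.21, adjusted p = 0.00653).

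Gdf7 was close to the limit of detection at E10.5 and present from E11.5 on. This ligand (ENSMUSG00000037660, chr12:8297918-8301954) is known from the roof plate of the spinal cord and from tendon. It had 4, 2 and 0 counts in E10.5 replicates 1 to 3, and the 0 allows a level of up to 0.186 CPM (3 counts). At E11.5 it had 89, 37 and 64 counts (4.79, 1.78 and 3.37 CPM) and at E12.5 57, 184 and 46 counts (3.21, 9.92 and 2.74 CPM). E12.5 replicate 2 was above the rest, and the other E12.5 libraries lay within the range of E11.5. From the summed counts the level was 27.2 times that of E10.5 at E11.5 (95% exact counting interval 12.3–75.2) and 45.3 times at E12.5 (20.5–124). Both comparisons with E10.5 gave DEGs (adjusted p = 0.00563 and 0.000566), with fitted log2 fold changes of 4.72 and 5.40 that rest on the 6 counts of E10.5. With a library left out in turn both stayed DEGs, and the fitted values ranged from 4.18 to 5.64 and from 4.57 to 6.30. Without E10.5 replicate 1 they were highest, and the lowest came without E10.5 replicate 3 in the former and without E12.5 replicate 2, which holds most of the E12.5 counts, in the latter. E12.5 vs. E11.5 gave 0.69 (SE 0.48, adjusted p = 0.364), and without E12.5 replicate 2 it gave -0.16. Gdf7 had the highest GC content of the 9 genes (70.6%), and removing each library's trend with GC content left 0.28 in E12.5 vs. E11.5. Over the 11 alternative settings that kept all libraries, the value of this step was 0.0048–0.72.

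Gdf5 was the least abundant ligand from E11.5 on. The gene (ENSMUSG00000038259, chr2:155941023-155945367) marks developing joints. It had 8, 4 and 5 counts at E10.5 (0.475, 0.232 and 0.310 CPM), 17, 11 and 10 counts at E11.5 (0.915, 0.529 and 0.527 CPM) and 13, 15 and 25 counts at E12.5 (0.733, 0.809 and 1.49 CPM). The E10.5 libraries were below all others, and the later stages overlapped. It was too low to be tested in E11.5 vs. E10.5. The second step gave 0.61 (SE 0.43, adjusted p = 0.367) and E12.5 vs. E10.5 gave 1.56 (SE 0.52, adjusted p = 0.0479). This last call was lost whichever of the 6 libraries was left out (adjusted p = 0.0671–0.198) and with DESeq2 (adjusted p = 0.122).

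**Figure D3:**
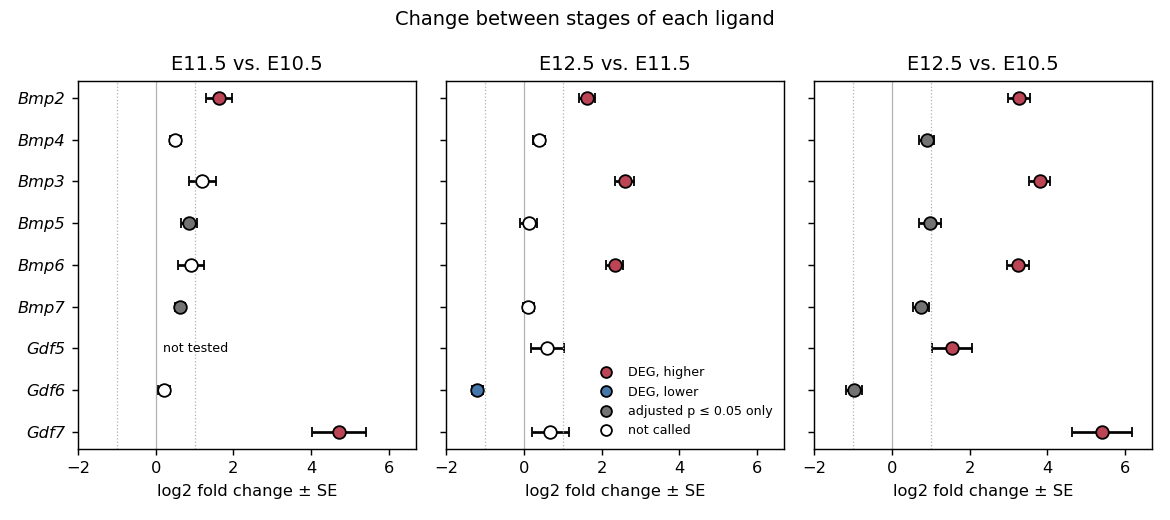
Log2 fold change of each ligand with its SE (x axis) in the 3 comparisons, with filled red points for upregulated DEGs, blue for downregulated DEGs, gray for an adjusted p of at most 0.05 alone and open points for the rest. Dotted lines mark a log2 fold change of -1 and 1. Gdf5 was not tested in the left panel, and in the middle one Gdf6 was the only ligand to the left of -1.

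Whether the steps before and after E11.5 differed was tested on all 9 libraries as the second log2 change minus the first. Gdf6 was the 1 ligand of 9 that passed, against 1.18% of all genes, with a difference of -1.40 (SE 0.28, adjusted p = 0.0346). Its adjusted p was 0.0620–0.194 when E10.5 replicate 2, any E11.5 library, E12.5 replicate 1 or E12.5 replicate 3 was left out, and the difference was -1.54 to -1.22 over all 9 libraries left out in turn. Bmp3 (1.40, adjusted p = 0.263) and Bmp6 (1.44, adjusted p = 0.219) had larger second steps by their values, but the difference did not pass. Nor did it for Bmp5 (-0.72, adjusted p = 0.516) or Bmp7 (-0.49, adjusted p = 0.539), which of the 2 steps passed the test at the first alone. Bmp2 gave 0.02 (SE 0.50, adjusted p = 0.993), from 2 steps of nearly the same size. Gdf7 gave -4.03 (SE 1.11, adjusted p = 0.120), and passed without E12.5 replicate 2 (-4.85, adjusted p = 0.0336) and with DESeq2 (-4.12, adjusted p = 0.00897).

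**Figure D4:**
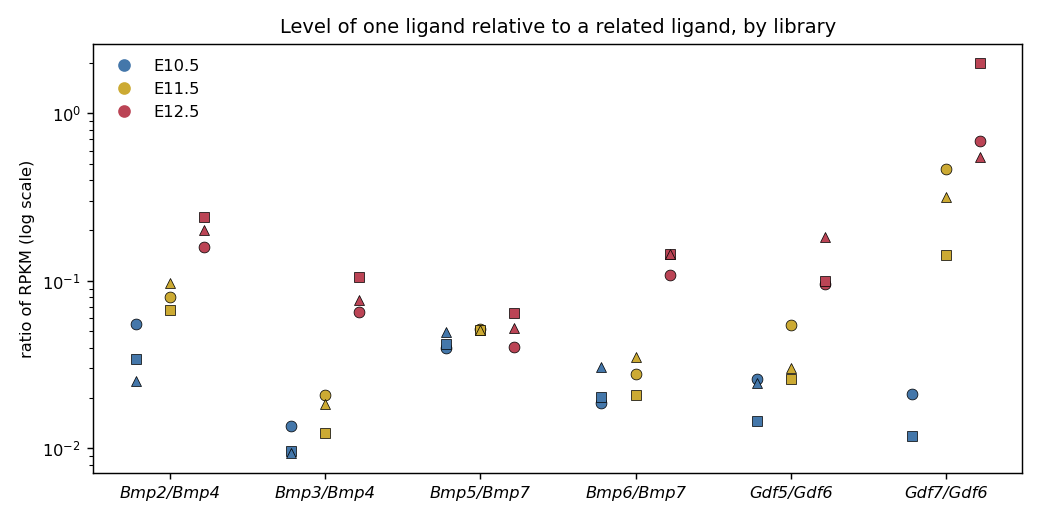
Ratio of the RPKM of a ligand to that of a related ligand (y axis, log scale) in each library, colored by stage, with circles, squares and triangles for replicates 1 to 3. The E10.5 library with 0 counts of Gdf7 is not drawn, Bmp5/Bmp7 stayed between 0.0399 and 0.0639, and Bmp6/Bmp7 was 0.109–0.144 at E12.5 and at most 0.0351 before.

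Within the subgroups the balance of the ligands differed between stages. In RPKM, Bmp4 exceeded Bmp2 by 18.0–39.5 times at the first stage, 10.3–14.9 times at the second and 4.17–6.28 times at the third, with no overlap between stages. Bmp7 exceeded Bmp6 by 32.8–53.4 times, 28.5–47.9 times and 6.94–9.17 times, so that only the last stage stood apart. The ratio of Bmp5 to Bmp7 was 0.0437 ± 0.00493, 0.0512 ± 0.000127 and 0.0520 ± 0.0118 at the 3 stages (SD, n = 3). For these members the E12.5 range (0.0402–0.0639) enclosed that of E11.5 and overlapped that of E10.5. The ratio of Gdf7 to Gdf6 was at most 0.0210 at E10.5 and 0.143–0.463 a day later, and 0.546–1.99 at E12.5, where Gdf7 was above Gdf6 in replicate 2 alone.

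Profiles were also compared across the 9 libraries as the root mean square (RMS) difference of log2 CPM, each gene centred on its own mean, among 16375 genes. This measure is a description over libraries that share their stages. It is not scaled to how much a gene varied, so genes that changed little have small differences from one another. The RMS deviation of a ligand from its own mean was 0.371 for Bmp7, 0.396 for Bmp4, 0.466 for Bmp5, 0.529 for Gdf6 and 0.637 for Gdf5. It was 1.37 for Bmp2 and Bmp6, 1.59 for Bmp3 and 2.11 for Gdf7. The most alike pairs of ligands were Bmp4 and Bmp7 (RMS 0.199), Bmp5 and Bmp7 (0.199) and Bmp4 and Bmp5 (0.285), followed by Bmp3 and Bmp6 (0.304). The least alike were Gdf6 and Gdf7 (2.35). The genes nearest to Bmp2 were Matn2, Cav1 and Col9a2 (0.224–0.259). Those nearest to Bmp3 were Bmp6, Nkx2-2os and Matn2 (0.304–0.310), and to Bmp6 they were Slc26a7, Vgll3 and Krt14 (0.179–0.279). Bmp4 was nearest to Mpp1, Gimap8 and Rbm12b1 (0.0922–0.117), Bmp5 to Abca5, Pik3r1 and Ankrd12 (0.0960–0.106) and Bmp7 to Mcu, Bcl2 and Epb41l2 (0.115–0.130). Gdf5 was nearest to Fhl2, Dapp1 and Tspyl3 (0.193–0.238), Gdf6 to Etv4, Ppm1h and Dmtn (0.153–0.196), and Gdf7, at the larger distances of 0.485–0.518, to Runx2, Inhba and Wfikkn2.

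The ligands were set beside 85 other genes of the pathway, listed by role. In E12.5 vs. E10.5, 20 of the 72 genes tested were upregulated DEGs and 6 downregulated, with a median log2 fold change of 0.55. The counts were 15 and 3 of 71 at the first step (median 0.34) and 6 and 2 of 68 at the second (median 0.22). Without E10.5 replicate 3, the number of DEGs was 24 over the whole span and 18 at the first step, and without E11.5 replicate 1 it was 10 at the first step. The shares of all genes in these fits are those given for the ligands.

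The values that follow are log2 fold changes of E12.5 vs. E10.5. Of 19 other family ligands 9 were tested, with Gdf10 (6.76, SE 0.38, adjusted p = 1.79e-06) and Inhba (5.21, SE 0.28, adjusted p = 1.525e-06), which encodes an activin subunit, upregulated. Mstn, encoding the muscle growth inhibitor myostatin, was downregulated (-3.98, SE 0.66, adjusted p = 0.00146). Gdf11 was also lower, by less than the fold threshold (-0.66, SE 0.19, adjusted p = 0.0263). Among 7 tested proteases that process BMP precursors or antagonists, Tll1 (2.86, adjusted p = 0.000415), Pcsk5 (1.28, adjusted p = 0.00182) and Htra1 (1.38, adjusted p = 0.00424) were upregulated and 0 downregulated. Tll1 belongs to the tolloid proteases, which cut chordin, and Pcsk5 to the convertases, which cleave growth factor precursors.

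Among 13 receptors and co-receptors, 1 was upregulated and 3 downregulated. These were Tgfbr3 (betaglycan, 1.40, adjusted p = 0.00165), and Acvr2b (type II, -2.13, adjusted p = 0.000746), Bmpr1b (type I, -1.14, adjusted p = 0.00286) and Hfe2 (hemojuvelin, -2.19, adjusted p = 0.0481). Hfe2 had few counts, with 0.894 ± 0.263 CPM at E10.5 and 0.191 ± 0.198 CPM at E12.5 (SD, n = 3). Of 19 antagonists and modulators tested, 11 were upregulated, among them Smoc2 (4.75, SE 0.43, adjusted p = 2.658e-05), and 2 downregulated, Vwc2 (-3.69, adjusted p = 0.000696) and Chrdl1 (-1.37, adjusted p = 0.0246). Their median log2 fold change was 1.33, next to 1.56 for the 9 ligands. Of 8 Smads and Smad ubiquitin ligases 1 was a DEG, Smad9 (1.33, SE 0.21, adjusted p = 0.00131), and the median was 0.30. Of 16 target genes 2 were DEGs, the osteoblast factor Sp7 (4.10, SE 0.29, adjusted p = 5.305e-06) and Msx1 (1.23, SE 0.24, adjusted p = 0.00376), and the median was 0.52. Both are also in the marker lists used below, Sp7 for bone and Msx1 for mesenchyme.

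**Figure D5:**
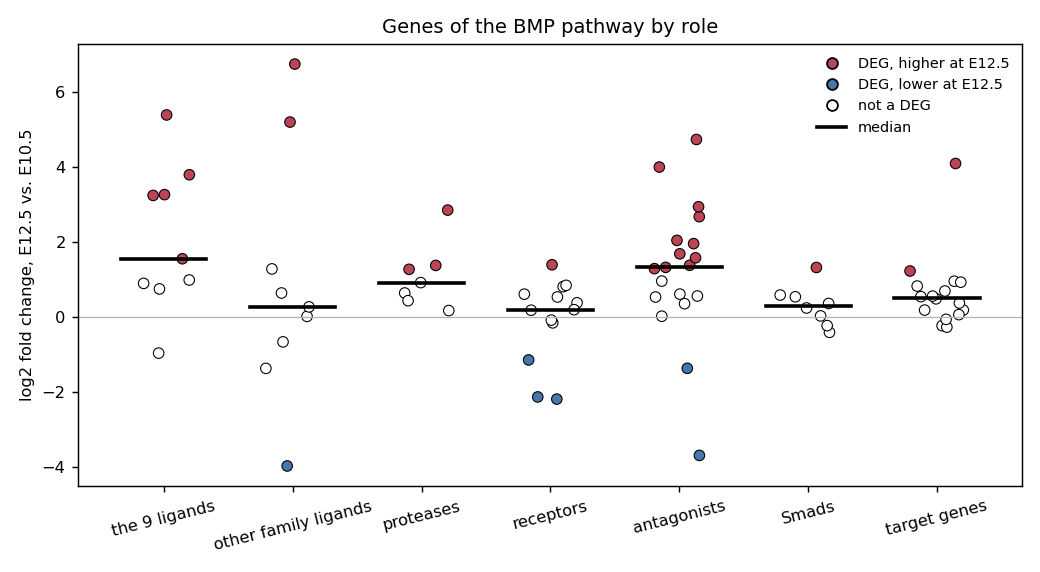
Log2 fold change of E12.5 vs. E10.5 (y axis) of every tested gene of the pathway, in columns by role, with red for upregulated DEGs, blue for downregulated DEGs, open points for the rest and a black line at the median. The medians were 1.56 for the 9 ligands, 1.33 for the antagonists and 0.20 for the receptors.

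Markers of epithelium and mesenchyme, the tissues of the prominences, were present in all libraries, and the level of several marker lists moved between the same stages. The summed CPM of 14 mesenchyme markers (led by Col3a1, Col1a2 and Prrx1) was 1583–3055 at E10.5, 4807–5390 a day later and 6087–7113 at E12.5. That of 7 bone markers (led by Runx2, Alpl and Sp7) was 26.8–29.4, 63.0–101 and 157–184. Bmp2, Bmp3 and Bmp6 were highest at the stage at which both sums were highest. That stage was also the highest for other lists. The sum of 9 neuron markers was 194–237, 215–232 and 300–335, and that of 8 macrophage markers was 24.0–35.4, 30.5–36.0 and 38.6–41.3. For 9 cartilage markers (led by Col2a1, Sox9 and Col9a1) it was 732–1153, 566.5–692.6 and 642.6–842, with the highest value at E10.5. The sum of 11 forebrain and eye markers was 270–391, 98.5–102 and 125–167, and that of 7 dorsal neural tube markers was 46.8–73.3, 9.32–9.58 and 7.17–11.8. The latter sum was lower at the stages at which Gdf7, a roof plate ligand, was higher. The sum of 14 epithelium markers was 613–1110, 664–685 and 930–1035, with the highest value in E10.5 replicate 3. In E12.5 vs. E10.5, 9 mesenchyme markers were upregulated and 1 downregulated of 14, 3 and 1 of 5 tested for bone, 1 and 7 of 11 for forebrain and eye, 1 and 2 of 4 tested for dorsal neural tube, and 3 and 1 of 14 for epithelium. For neuron they were 1 and 1 of 9, for macrophage 1 and 0 of 8, and for cartilage 3 and 0 of 8 tested. Over all genes tested the shares were 9.97% upregulated and 5.08% downregulated. These marker counts include E10.5 replicate 3. None of these lists had a marker at 0 in all libraries. Their part in the ligand values was not tested.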

How the data were processed

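RNA-seq was done on 9 libraries of lambdoidal junction tissue, grouped by the stage in their labels, and total counts were 16581009–20836804. Reads were mapped by the authors to GRCm38/mm10 using HISAT2 (version 2.0.5 in the submitters' processing notes) and counted them with featureCounts. The deposited counts are whole reads per gene without normalization. The deposited FPKM values were computed by the authors from counts and gene length and were used as an alternative to RPKM. The authors' columns of fold changes and p-values for each pair of stages were not used. Strand and multi-mapping settings are not given in the sources used here.

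The members and all gene lists were chosen with earlier results of these data known. Replicates were kept apart, since their counts differed beyond sampling noise (chi-square over degrees of freedom, 4.42–68.3). The 6 libraries of a pair of stages were fitted with edgeR 4.0.16 (R 4.3.3; filterByExpr, TMM, quasi-likelihood test, Benjamini-Hochberg over all genes tested). The difference of the steps was fitted on all 9. SE is the absolute log2 fold change over the square root of F. Levels are CPM on TMM-scaled sizes. Coordinates are those of the deposited table, and exons and GC content are from GENCODE (GRCm38). Upstream sequences are from RefSeq (GRCm38.p6), and no other sequence was used. Genes named beside the members are, per pathway list, the 2 higher and 2 lower DEGs with the smallest p in E12.5 vs. E10.5 (every DEG of a list with 5 or fewer), the 3 nearest profiles per member and the 3 most abundant markers. 1 gene that this rule names is not reported here. Intervals and limits of detection cover counting error only. Reads carried no molecular identifiers. Alternatives were DESeq2 1.42.0, its size factors, upper quartile normalization, other count filters and thresholds, all libraries in one fit, a replicate block, removal of the GC trend, hemoglobin genes left out, glmTreat, and each library left out.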

Additional observations from a re-analysis of the deposited data

Results flagged for a closer look

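Gdf6 was singled out because its change from E11.5 to E12.5 differed from its change from E10.5 to E11.5 by a test of the difference itself. The difference was -1.40 on the log2 scale (SE 0.28, adjusted p = 0.0346 with edgeR's quasi-likelihood test), from 0.22 at the first step and -1.19 at the second. The call held in 3 of the 9 fits with a library left out (same test, adjusted p = 0.0115–0.194 over the 9). All 3 E12.5 libraries were below all 6 earlier ones. Groups of 3 libraries are too small for a test of single outlying samples.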

How the results depend on the processing

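Of 599 recomputed member fold changes, 547 kept their sign and their call, 23 lost and 19 gained a call, and 10 changed sign, each of a value that was not called. The call is that of a DEG between stages, and the adjusted p alone for the difference of the steps. A ligand under the fold threshold thus counts as kept whatever its adjusted p. For Bmp7 in E11.5 vs. E10.5 all 6 fits with a library left out count as kept, at adjusted p = 0.00103–0.120 (edgeR's quasi-likelihood test). With a library left out, the values that changed sign ranged from -0.085 to 0.25 for Bmp5, -0.011 to 0.25 for Bmp7 and -0.16 to 1.03 for Gdf7 in E12.5 vs. E11.5. In the difference of the steps they ranged from -0.40 to 0.45 for Bmp2, -0.32 to 0.015 for Bmp4 and -0.71 to 0.30 for Gdf5, and that of Bmp2 was -0.016 with all genes of at least 1 count. The number of DEGs among the ligands in E11.5 vs. E10.5 was 1 with at least 10 counts in every library, where Gdf7 was not tested, 1 with glmTreat, 1 at an adjusted p of at most 0.01 and 4 without the fold threshold. It was 1–4 with a library left out. In E12.5 vs. E11.5 it was 2 with glmTreat and 4 in every fit with a library left out, and in E12.5 vs. E10.5 it was 9 without the fold threshold and 4–6 with a library left out. The number of ligands whose steps differed was 2 with all genes of at least 1 count, 2 with DESeq2, 0 at an adjusted p of at most 0.01 and 0–2 with a library left out. Among the other pathway genes glmTreat gave 5, 2 and 15 DEGs at the first step, the second step and over the span, the second was 21 without the fold threshold, and leaving out a library gave 10–19, 6–9 and 24–26. All 54 levels and shares moved by less than 1 SD with the authors' FPKM. The shares could not move, since FPKM and RPKM both divide the same counts by gene length. The levels differ only by a scale per library, so neither is a check on the processing. Ranked by Pearson correlation, at most 1 of the 3 nearest genes of a ligand was shared. With so few counts, changes of Gdf5 and of Gdf7 at E10.5 are limited by depth.

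No pairing of the libraries by replicate number was seen. The deviations of same-numbered libraries correlated at -0.15 to 0.22, and those of differently numbered libraries at -0.22 to 0.22. With 3 libraries per stage, these values cannot show that the numbers carry no pairing. With the replicate block the ligand DEGs were 2, 4 and 4 in the 3 comparisons, 1 ligand differed between steps (Gdf6, adjusted p = 0.0465), and Gdf5 lost its call in E12.5 vs. E10.5 (1.53, adjusted p = 0.0604).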
